A study of Mus musculus with 18 samples.

Results

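The EGF receptor family was followed in mouse lung fibroblasts of the line MLg 2908 through 10 genes, chosen by their symbols. They are the receptors Egfr, Erbb2 and Erbb3, the ligands Hbegf, Areg, Ereg, Tgfa, Btc and Nrg1, and the inhibitor Errfi1. Of these, 9 genes were measured among 19938 genes in all. Each stands for its brightest probe set with exactly 1 gene symbol. Areg has no such probe set in the array annotation and was not analysed here. The cells were plated on top of a collagen gel, and cells found inside the gel (invading fraction) were separated from cells that had stayed above it (non-invading fraction). Fractions were taken after 72 hours (4 invading and 4 non-invading samples) or after 96 hours (5 invading and 5 non-invading samples), and their RNA was hybridised to Affymetrix arrays of the type Mouse Gene 1.0 ST. All 18 samples come from 1 line of wild-type genotype (WT), strain ddY, derived from newborn mice. Their treatment entry names TGFB1 beside the invasion assay, while the titles name no treatment and the study's figures mark the cells as non-treated. Whether TGFB1 was present is thus not settled by the labels. A single line stands here for lung fibroblasts. Since a fraction is a bulk sample, fewer cells that express a gene and less RNA per cell cannot be told apart.

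The receptors of this family are tyrosine kinases of the cell surface that pair when a ligand binds and then pass the signal to RAS, ERK and PI3 kinase. Egfr is the receptor for Hbegf, Areg, Ereg, Tgfa and Btc, Erbb3 and Erbb4 bind the neuregulins such as Nrg1, and Erbb2, which has no known soluble ligand, serves as the partner of the others. Most ligands are made as membrane proteins and set free by ADAM proteases, and signalling induces its own restraints, among them Errfi1 (also called MIG6), which binds the kinase domain of the receptor. In the lung these signals drive division and movement of epithelial cells and fibroblasts.

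Signals are given on a log2 scale, on which a difference of 1 is a ratio of 2 between fractions. Sample medians lay between 6.46 and 6.65, and Pearson's r between samples of 1 group over all 35556 probe sets lay between 0.991 and 0.996. Precision is limited by how many arrays each group has. Fractions were compared with limma at each time, and a gene was called higher or lower at an adjusted p under 0.1. Of 12 measured fibroblast markers, 10 passed a linear signal of 100 in every group. The summed linear signal of the 12 was 49437 to 56005 in invading and 54719 to 58329 in non-invading samples at 72 hours. It was 53716 to 59143 in invading and 55577 to 61340 in non-invading samples at 96 hours. Thy1 and Fap, 2 of these markers, lay below 100 on average, at mean log2 signals of 6.07 and 4.52. The 10 epithelial markers summed to between 626 and 872 over all groups, the 7 leukocyte and macrophage markers to between 447 and 788, and the 6 endothelial markers to between 251 and 334. At 96 hours the epithelial sum was 716 to 750 in invading and 626 to 705 in non-invading samples, and the leukocyte sum was 571 to 720 in invading and 447 to 564 in non-invading samples. At 72 hours the epithelial sum was 756 to 872 in invading and 658 to 757 in non-invading samples, and the leukocyte sum was 729 to 788 in invading and 619 to 672 in non-invading samples. Their part in the results on Egfr, Nrg1 and the other members was not tested.

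RefSeq promoters of build GRCm38.p6 were matched by symbol for 6 of the 10 genes, and the 250 bases before each annotated start are shown for Egfr, Btc and Errfi1, which were called between the fractions below. Nrg1, the other gene called between the fractions, had no matched promoter. Errfi1 has 2 annotated starts. Each window was searched on both strands for the CRE (TGACGTCA), the AP-1 site (TGANTCA), the GC box (GGGCGG) and the CArG box, and matches are in capitals. Sequences are 5′ to 3′ on the strand of the gene.
Egfr, chr11:16751953-16752202, plus strand: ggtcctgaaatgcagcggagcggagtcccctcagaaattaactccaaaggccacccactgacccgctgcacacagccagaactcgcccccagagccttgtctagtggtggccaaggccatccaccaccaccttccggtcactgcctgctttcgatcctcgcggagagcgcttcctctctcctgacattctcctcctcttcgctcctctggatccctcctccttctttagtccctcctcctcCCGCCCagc
Btc, chr5:91402995-91403244, minus strand: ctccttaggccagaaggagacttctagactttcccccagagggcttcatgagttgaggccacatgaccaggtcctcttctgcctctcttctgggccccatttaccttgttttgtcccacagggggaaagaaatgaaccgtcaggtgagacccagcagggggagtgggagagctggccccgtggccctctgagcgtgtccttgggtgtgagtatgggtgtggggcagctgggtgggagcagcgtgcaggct
Errfi1 start 1, chr4:150853546-150853795, plus strand: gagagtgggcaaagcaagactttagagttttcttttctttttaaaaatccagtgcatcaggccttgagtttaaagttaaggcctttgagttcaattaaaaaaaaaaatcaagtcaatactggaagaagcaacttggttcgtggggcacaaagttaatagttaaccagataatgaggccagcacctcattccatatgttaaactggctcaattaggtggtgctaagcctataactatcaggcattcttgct
Errfi1 start 2, chr4:150854820-150855069, plus strand: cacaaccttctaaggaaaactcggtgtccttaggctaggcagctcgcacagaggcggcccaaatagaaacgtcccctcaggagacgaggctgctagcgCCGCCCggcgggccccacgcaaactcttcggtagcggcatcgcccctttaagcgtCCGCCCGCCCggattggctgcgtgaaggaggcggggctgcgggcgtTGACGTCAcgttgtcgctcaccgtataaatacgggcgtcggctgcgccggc
The Egfr window, 60.8% G and C, held 1 GC box, which begins 9 bases before the start. The Btc window (59.6% G and C) and the first Errfi1 window (38% G and C) held none of the 4 motifs. The second Errfi1 window, 64.8% G and C, held 1 CRE, which begins 51 bases before the start, and 3 GC boxes, of which a pair overlaps. Of 32851 windows of the same length, 1.55% held a CRE, 6.75% an AP-1 site, 32.7% a GC box and 1.47% a CArG box.

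Egfr, the receptor of most of the ligands, was lower in invading than in non-invading fibroblasts after 72 and after 96 hours. At 72 hours its log2 signal was 10.98, 10.88, 11.04 and 10.78 in the 4 invading samples, against 11.26, 11.22, 11.42 and 11.48 in the 4 non-invading samples. Its values at 96 hours were 11.02, 10.83, 10.87, 10.83 and 10.81 in the 5 invading samples, against 11.48, 11.62, 11.62, 11.40 and 11.53 in the 5 non-invading samples. Every invading sample lay below every non-invading sample at each time. The invading over non-invading ratio was 0.743 at 72 hours (-0.43 on the log2 scale, SE 0.086, limma adjusted p = 0.009) and 0.633 at 96 hours (-0.66 on the log2 scale, SE 0.061, limma adjusted p = 5.4e-05). The log2 ratios differed between the times by -0.23 (95% interval -0.44 to -0.02), which did not pass the adjustment (limma adjusted p = 0.54).

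Within the invading fraction, Egfr averaged 10.87 ± 0.08 at 96 hours (SD, n = 5) and 10.92 ± 0.11 at 72 hours (SD, n = 4), with a log2 ratio of 96 to 72 hours of -0.05 (95% interval -0.20 to 0.10, limma adjusted p = 0.69). Within the non-invading fraction it averaged 11.53 ± 0.09 at 96 hours (SD, n = 5) and 11.35 ± 0.12 at 72 hours (SD, n = 4), and was called higher at 96 hours (0.18 on the log2 scale, SE 0.071, limma adjusted p = 0.079), with overlapping samples. Leaving out any of 5 samples ended this last call: non-invading replicate 1 or 2 of 72 hours (adjusted p = 0.18 and 0.23) or non-invading replicate 2, 3 or 5 of 96 hours (0.16, 0.16 and 0.12).

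Nrg1, a neuregulin that binds Erbb3 and Erbb4, was lower in invading than in non-invading fibroblasts after 72 and after 96 hours. At 72 hours its log2 signal was 9.06, 8.98, 8.97 and 9.06 in the invading samples, against 9.42, 9.41, 9.60 and 9.52 in the non-invading samples. In the samples of 96 hours it was 8.82, 9.07, 9.02, 9.05 and 8.82 in the invading samples, against 9.22, 9.51, 9.48, 9.56 and 9.37 in the non-invading samples. The fractions did not overlap at either time. The ratio was 0.723 at 72 hours (-0.47 on the log2 scale, SE 0.067, limma adjusted p = 0.0021) and 0.722 at 96 hours (-0.47 on the log2 scale, SE 0.081, limma adjusted p = 0.0015). The 95% interval of the difference between these log2 ratios ran from -0.23 to 0.22. The log2 ratio of 96 to 72 hours was -0.06 in invading (95% interval -0.22 to 0.09) and -0.06 in non-invading samples (95% interval -0.22 to 0.10).

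Erbb2 and Erbb3, the receptors that signal as partners, were not called between the fractions at either time in the main fits. At 72 hours Erbb2 was called higher in 2 of 18 alternative runs (lowest limma adjusted p = 0.068). These were each array centred on its median and quantile normalization applied again. Erbb3 was called higher in 1 of 17 runs at 72 hours and 2 of 19 at 96 hours (lowest limma adjusted p = 0.096 at each). Erbb2 stood at 9.83, 9.95, 9.87 and 9.81 in the invading samples of 72 hours, against 9.72, 9.80, 9.61 and 9.76 in the non-invading samples. All 4 invading samples lay above all 4 non-invading samples, yet the log2 ratio of 0.14 (95% interval -0.01 to 0.30) had a limma adjusted p = 0.17. At 96 hours Erbb2 stood at 9.63, 9.57, 9.70, 9.42 and 9.71 in the invading samples, against 9.77, 9.54, 9.72, 9.65 and 9.57 in the non-invading samples, with overlap and a log2 ratio of -0.04 (95% interval -0.19 to 0.11, limma adjusted p = 0.71). Within the invading fraction Erbb2 fell with time, and all 5 samples of 96 hours lay below all 4 of 72 hours (-0.26 on the log2 scale, SE 0.067, limma adjusted p = 0.0093). In the non-invading fraction the log2 ratio of 96 to 72 hours was -0.07 (95% interval -0.21 to 0.07, limma adjusted p = 0.53). The difference of the log2 ratio between fractions at 96 and at 72 hours, which equals the difference between these changes with time, was -0.19 (95% interval -0.39 to 0.01, limma adjusted p = 0.62). Another probe set, shared by Erbb2 and Sympk, had a log2 ratio of 96 to 72 hours of -0.02 in invading samples (limma adjusted p = 0.9) and was not called in any comparison.

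Erbb3 lay below a linear signal of 100 in all 18 samples. At 72 hours its log2 signal was 6.03 to 6.32 in invading and 5.99 to 6.11 in non-invading samples. At 96 hours it was 5.97 to 6.21 in invading and 5.89 to 6.11 in non-invading samples. The log2 ratio was 0.14 at 72 hours (95% interval -0.04 to 0.33) and 0.03 at 96 hours (95% interval -0.12 to 0.17), and the groups overlapped at both times.

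**Figure D1:**
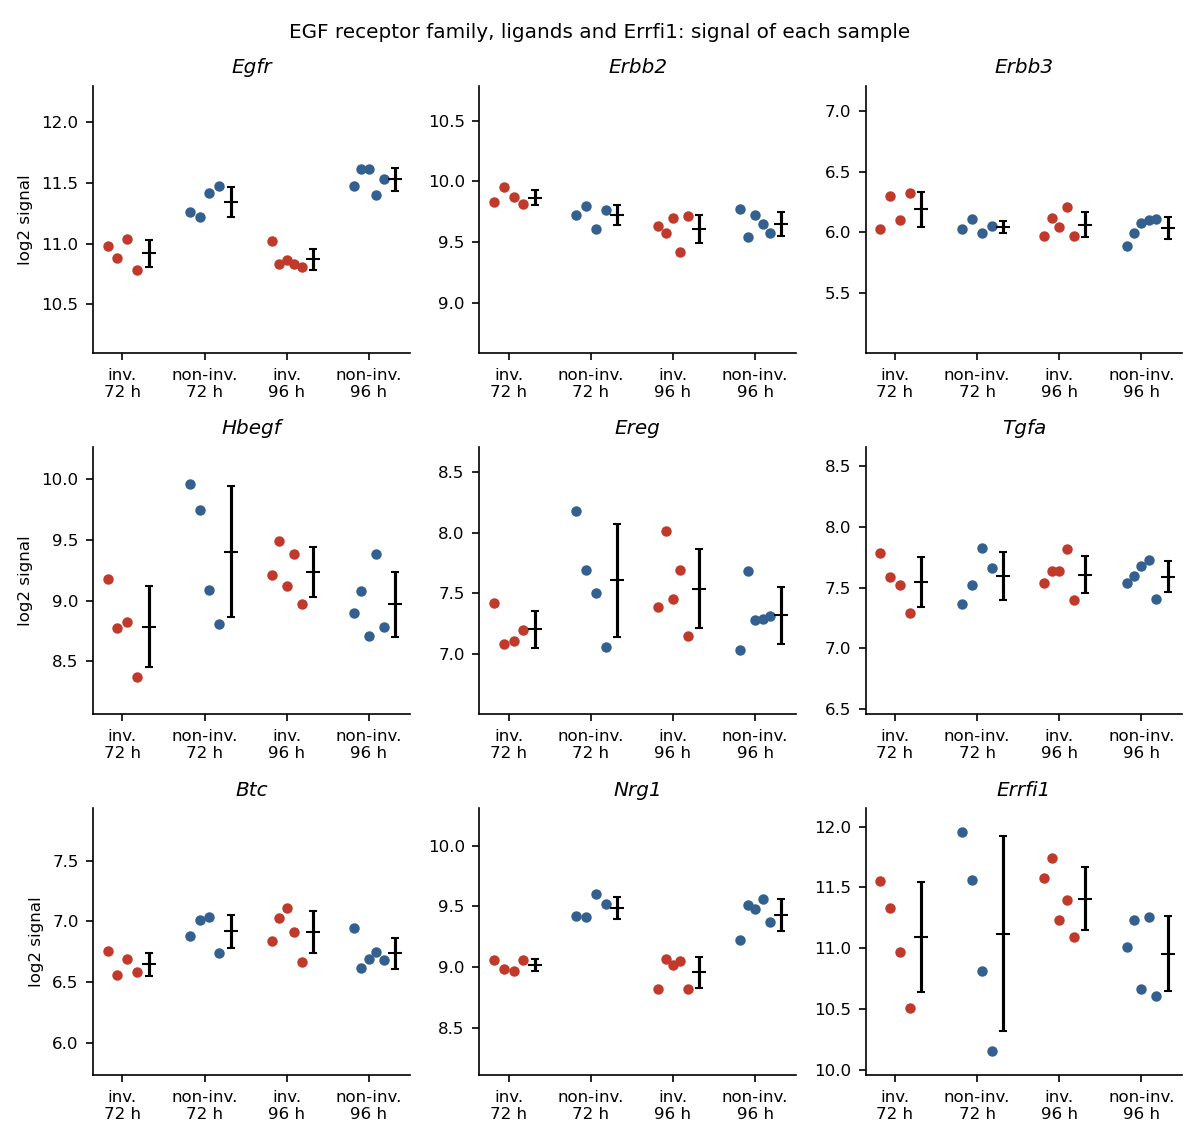
Log2 signal (vertical axis) of the 9 measured genes in each sample of the invading (red) and non-invading (blue) fraction at 72 and 96 hours (horizontal axis), with the mean and SD beside each group; every panel spans the same number of log2 units. Egfr and Nrg1 show the invading samples below the non-invading samples at both times, while Errfi1 and Hbegf of 72 hours spread widely within a fraction.

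Hbegf and Ereg, ligands that bind both Egfr and Erbb4, were not called between the fractions at either time in the main fits, which were unpaired. Several alternative fits did call Hbegf, as given in the closing sections. At 72 hours Hbegf, the heparin-binding ligand, had log2 signals of 9.18, 8.77, 8.82 and 8.37 in the invading samples, against 9.96, 9.75, 9.09 and 8.81 in the non-invading samples. Values of 96 hours were 9.21, 9.49, 9.12, 9.38 and 8.97 in the invading samples, against 8.90, 9.08, 8.71, 9.38 and 8.78 in the non-invading samples. The fractions overlapped at both times. The log2 ratio was -0.62 at 72 hours (95% interval -1.21 to -0.03, limma adjusted p = 0.13) and 0.26 at 96 hours (95% interval -0.03 to 0.56, limma adjusted p = 0.17). The ratios differed between the times by 0.88 (95% interval 0.25 to 1.51), which did not pass the adjustment (limma adjusted p = 0.4). Without non-invading replicate 4, the lowest of its group, Hbegf was called lower at 72 hours (log2 ratio -0.82, limma adjusted p = 0.057). Without non-invading replicate 4 of 96 hours it was called higher at that time (log2 ratio 0.37, limma adjusted p = 0.036).

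Ereg (epiregulin) had log2 signals of 7.42, 7.08, 7.11 and 7.20 in the invading samples of 72 hours, against 8.18, 7.69, 7.50 and 7.06 in the non-invading samples. Its values of 96 hours were 7.39, 8.01, 7.45, 7.69 and 7.15 in the invading samples, against 7.03, 7.68, 7.28, 7.29 and 7.31 in the non-invading samples. The lowest sample of 72 hours was non-invading replicate 4 and the highest non-invading replicate 1, and the fractions overlapped at both times. The log2 ratio was -0.40 at 72 hours (95% interval -0.86 to 0.06, limma adjusted p = 0.2) and 0.22 at 96 hours (95% interval -0.12 to 0.57, limma adjusted p = 0.34). The difference between the times was 0.62 (95% interval 0.05 to 1.20, limma adjusted p = 0.54). Without non-invading replicate 4, Ereg too was called lower at 72 hours (log2 ratio -0.59, limma adjusted p = 0.048).

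Btc (betacellulin), another ligand of Egfr and Erbb4, was called lower in the invading fraction at 72 hours and was not called at 96 hours in the main fits. Its log2 signal was 6.76, 6.56, 6.69 and 6.58 in the invading samples of 72 hours, against 6.88, 7.01, 7.04 and 6.74 in the non-invading samples. The later samples, of 96 hours, had 6.84, 7.03, 7.11, 6.91 and 6.67 in the invading samples, against 6.95, 6.62, 6.69, 6.75 and 6.68 in the non-invading samples. At 72 hours the highest invading sample passed the lowest non-invading one by a narrow margin, and at 96 hours the ranges were mixed. The log2 ratio was -0.27 at 72 hours (SE 0.085, limma adjusted p = 0.053) and 0.17 at 96 hours (95% interval -0.02 to 0.37, limma adjusted p = 0.18). The test of the difference between them gave 0.44 (95% interval 0.18 to 0.71, limma adjusted p = 0.31). Within the invading fraction Btc was called higher at 96 than at 72 hours (0.26 on the log2 scale, SE 0.09, limma adjusted p = 0.042). Within the non-invading fraction its log2 ratio was -0.18 (95% interval -0.37 to 0.01, limma adjusted p = 0.18). The call of 72 hours ended without invading replicate 2 or 4 (adjusted p = 0.13 and 0.11) or non-invading replicate 2 or 3 (0.12 and 0.13). It also ended after quantile normalization applied again (log2 ratio -0.18, adjusted p = 0.17) and after each array was centred on its median (log2 ratio -0.19, adjusted p = 0.16), and it did not pass an adjusted p under 0.05. The call with time in the invading fraction ended without invading replicate 2 or 4 of 72 hours or replicate 3 of 96 hours (adjusted p = 0.11 each). At 96 hours Btc was called higher in the invading fraction in 4 of 20 alternative runs (lowest limma adjusted p = 0.021). Of these, 2 left out 1 sample.

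Tgfa, a ligand of Egfr, lay at 7.29 to 7.79 in invading and 7.37 to 7.83 in non-invading samples of 72 hours. At 96 hours it lay at 7.40 to 7.82 in invading and 7.41 to 7.73 in non-invading samples, so that the ranges nearly coincided at both times. The log2 ratio was -0.05 at 72 hours (95% interval -0.34 to 0.24) and 0.02 at 96 hours (95% interval -0.17 to 0.20).

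Errfi1, the inhibitor that receptor signalling induces, was called higher in the invading fraction at 96 hours. At 72 hours its log2 signal was 11.55, 11.33, 10.97 and 10.51 in the invading samples, against 11.96, 11.56, 10.81 and 10.15 in the non-invading samples. At the later time it was 11.58, 11.74, 11.23, 11.40 and 11.09 in the invading samples, against 11.01, 11.23, 10.66, 11.26 and 10.61 in the non-invading samples. The fractions overlapped at both times, at 72 hours over the whole range of the invading samples. The ratio was 1.37 at 96 hours (0.45 on the log2 scale, SE 0.16, limma adjusted p = 0.055), and at 72 hours the log2 ratio was -0.03 (95% interval -0.88 to 0.82, limma adjusted p = 0.97). The difference between the times was 0.48 (95% interval -0.39 to 1.36, limma adjusted p = 0.8). The call of 96 hours ended without invading replicate 1 or 2 (adjusted p = 0.1 and 0.12) or non-invading replicate 3 or 5 (0.12 and 0.13), and in 1 fit over all 18 samples (adjusted p = 0.25). The log2 ratio of 72 hours ran from -0.35 without non-invading replicate 4 to 0.25 without non-invading replicate 1.

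**Figure D2:**
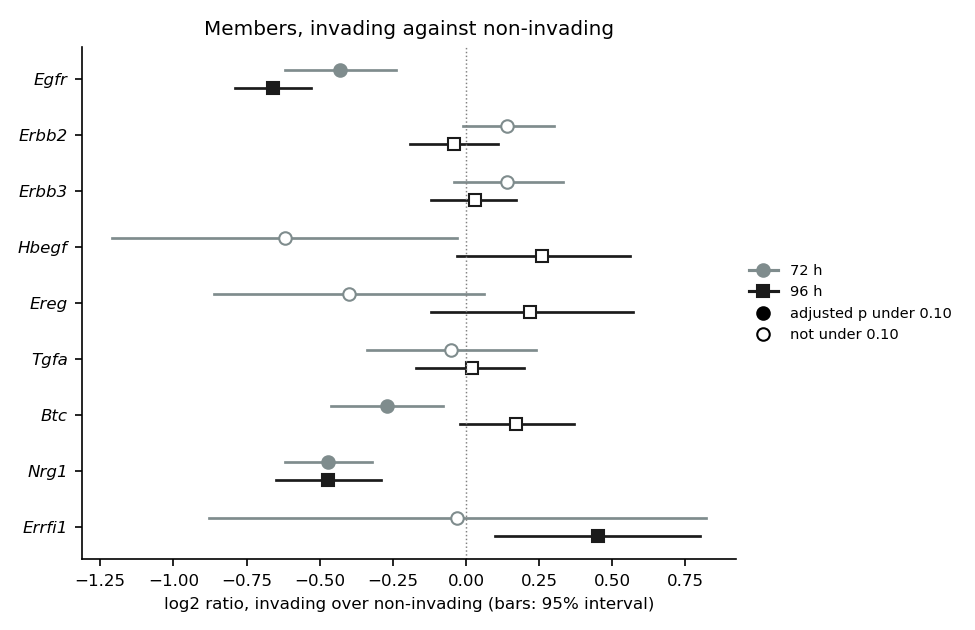
Invading over non-invading log2 ratio (horizontal axis) of each measured gene (vertical axis) at 72 hours (grey circles) and 96 hours (black squares), with bars for the 95% interval; filled marks have an adjusted p under 0.1. Egfr lies at -0.43 and -0.66 and Nrg1 at -0.47 at both times, and Hbegf, Ereg and Btc lie below 0 at 72 hours and above 0 at 96 hours, with differences between the times that did not pass the adjustment.

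Over the 9 measured genes, 0 were called higher and 3 lower (Egfr, Nrg1 and Btc) at 72 hours, where 26.5% of all 19938 genes were called, 13.0% higher and 13.5% lower. Non-overlapping fractions were found for 3 of the 9, Erbb2 above and Egfr and Nrg1 below, against 24.8% of all genes (12.5% above and 12.3% below). The median log2 ratio was -0.27 over the 9 and 0.04 over all genes. At 96 hours 1 was called higher (Errfi1) and 2 lower (Egfr and Nrg1), where 31.4% of all genes were called, 16.7% higher and 14.7% lower. At that time 2 of the 9, Egfr and Nrg1, had non-overlapping fractions, both below, against 18.2% of all genes (9.35% above and 8.80% below). The median log2 ratio was 0.03 over the 9 and 0.02 over all genes. The share of the 9 genes called was near that of all genes at both times.

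The split of these calls moved with the scaling of the arrays. At 72 hours 2590 genes were higher and 2700 lower as deposited, but 5030 and 1865 after each array was centred on its median and 5043 and 2328 after quantile normalization applied again. There the 9 gave 2 higher (Erbb2 and Erbb3) and 2 lower with centring, and 1 higher (Erbb2) and 2 lower with quantile normalization. At 96 hours 3322 genes were higher and 2933 lower as deposited, but 9120 and 1579 with centring and 7695 and 2494 with quantile normalization. The 9 then gave 5 higher and 2 lower with centring, and 4 higher and 2 lower with quantile normalization. Egfr and Nrg1 were called lower at both times under both scalings.

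The test of the difference between the times called 0 of the 9 (4 at an unadjusted p under 0.05 from limma), where 0.0150% of all genes were called. At that unadjusted threshold 3062 of all 35556 probe sets passed. From 72 to 96 hours in the invading fraction, 1 of the 9 was called higher at 96 hours (Btc) and 1 lower (Erbb2), against 34.8% of all genes called, 18.2% higher and 16.7% lower. Erbb2 alone of the 9 had no overlap between the times and lay below, against 23.6% of all genes without overlap, and 10.3% of all genes below. In the non-invading fraction 1 was called higher (Egfr), against 27.6% of all genes called, 15.4% of all genes being higher. There 0 of the 9 had no overlap, against 20.0% of all genes, with 12.2% above and 7.80% below.

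The genes also differed in how far samples of 1 group lay apart. At 72 hours the SD of Errfi1 was 0.80 in the non-invading samples (n = 4), and 5 of 19938 genes had a larger SD there. In the same samples Hbegf had an SD of 0.54, with 32 genes above it, and Ereg one of 0.46, with 51 above it, against a median SD of 0.11 over all genes. In the invading samples of 72 hours the SD was 0.45 for Errfi1 (73 genes above it), 0.33 for Hbegf (256 above it) and 0.15 for Ereg (5688 above it). For Errfi1, Hbegf and Ereg alike, non-invading replicate 1 was the highest and non-invading replicate 4 the lowest of their group, and invading replicate 1 was the highest of its group. The lowest invading sample was replicate 4 for Errfi1 and Hbegf and replicate 2 for Ereg. Errfi1 had the same order of replicate numbers in both fractions of 72 hours. At 96 hours the SD of Errfi1 was 0.26 in invading and 0.31 in non-invading samples, and that of Hbegf 0.20 in invading and 0.27 in non-invading samples. There invading replicate 5 was the lowest of its group for Egfr, Hbegf, Ereg, Tgfa, Btc and Errfi1. The SD of Egfr and Nrg1 lay between 0.05 and 0.14 in every group.

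**Figure D3:**
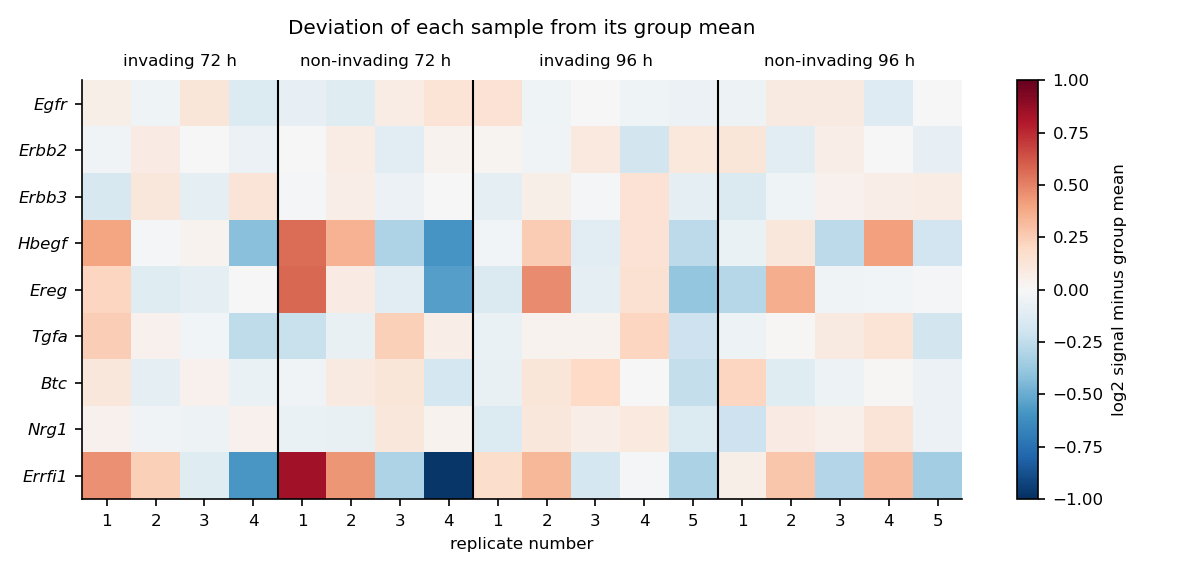
Log2 signal of each sample minus the mean of its group (colour) for the 9 measured genes (vertical axis) and the samples by replicate number (horizontal axis) in the 4 groups. Errfi1, Hbegf and Ereg stand apart in replicates 1 and 4 of the non-invading fraction at 72 hours, and Egfr, Nrg1 and Erbb2 stay near the group mean throughout.

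The genes whose pattern over the 18 samples lay nearest to that of a gene called at both times were found by the root mean square difference of log2 values after each gene was centred on its mean. For Egfr, whose own SD around its mean was 0.3, these were Fnbp4 (0.078), Mapk8ip3 (0.092) and Arglu1 (0.097). Fnbp4 had ratios of 0.734 at 72 hours and 0.644 at 96 hours, Mapk8ip3, a scaffold of JNK kinases and motor proteins, 0.739 and 0.631, and Arglu1, a nuclear arginine- and glutamate-rich protein, 0.682 and 0.691. For Nrg1, whose own SD was 0.26, these were Steap2, a metalloreductase (0.078), the transcriptional cofactor Trim24 (0.095) and Aak1, a kinase of clathrin adaptors (0.12). Their ratios ran from 0.712 to 0.747 at 72 hours and from 0.722 to 0.744 at 96 hours.

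Around these genes the pathway was read from 5 lists. Of the other receptors and ligands, Erbb4, Egf, Epgn, Nrg2, Nrg3 and Nrg4, 0 of 6 were called between the fractions at either time, with log2 ratios from -0.12 to 0.17 at 72 hours and from -0.15 to 0.14 at 96 hours. At an unadjusted p under 0.05 from limma, 1 passed at 72 hours and 0 at 96 hours, where 11900 and 13680 of all 35556 probe sets passed. Mean log2 signals were 4.49 for Nrg4, 5.06 for Epgn and Nrg3, 5.33 for Erbb4 and 6.22 for Egf. These means lie below a linear signal of 100, and only Nrg2 (6.69) lay above it. Whether the genes below it were expressed was not tested. Nrg4, named after its values were seen, was lower at 96 than at 72 hours in the invading fraction (log2 ratio -0.23, limma adjusted p = 0.0079). In that comparison 34.8% of all genes were called. Of 11 genes of ligand shedding, the invading fraction had 2 higher and 4 lower at 72 hours, when 26.5% of all genes were called, 13.0% higher and 13.5% lower. It had 3 higher and 4 lower at 96 hours, when 31.4% were called, 16.7% higher and 14.7% lower. Adam17, the main sheddase of Tgfa, Areg and Hbegf, was not called (log2 ratio 0.11 at both times, limma adjusted p = 0.55 at 72 hours and 0.36 at 96 hours). Adam10, the main sheddase of Btc, was lower at both times (-0.33, adjusted p = 0.029, and -0.24, adjusted p = 0.0091, limma). Frmd8, a partner of the iRhoms that carry Adam17 to the surface, was higher at both times (0.45 and 0.42), as was the iRhom Rhbdf2 (0.31 and 0.28). The other iRhom, Rhbdf1, had a log2 ratio of -0.04 at 72 hours (limma adjusted p = 0.7) and was lower at 96 hours (-0.26, limma adjusted p = 0.0043). Adam9 (-0.58 and -0.53) and Adam19 (-0.34 and -0.39), further membrane proteases, were lower at both times. Adam8 was lower at 72 hours (-0.41, limma adjusted p = 0.042) and not called at 96 hours (-0.14, limma adjusted p = 0.27). At 96 hours 6 were higher and 3 lower after each array was centred on its median, where 9120 of all 19938 genes were higher and 1579 lower. The median log2 ratio of the list was -0.04 at 72 hours and 0.07 at 96 hours, against 0.04 and 0.02 over all genes.

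Of 28 measured genes of 34 listed for signal transduction, 10 were higher and 8 lower at 72 hours in the invading fraction, against 26.5% of all genes called. At 96 hours 9 were higher and 8 lower, against 31.4% of all genes called, but 15 and 3 after each array was centred on its median. With that centring 9120 of all 19938 genes were higher and 1579 lower. Among the called genes with the largest log2 ratios, 4 were lower, with an adjusted p of at most 0.039 from limma. They were Braf, a kinase above ERK (-0.63 at 72 hours and -0.60 at 96 hours), the adaptor Nck1 (-0.59 and -0.26), the RAS exchange factor Sos2 (-0.58 and -0.42) and Pik3cb, a catalytic subunit of PI3 kinase (-0.51 and -0.35). A regulatory subunit of PI3 kinase, Pik3r2, was higher by a like amount (0.51 and 0.33), as was the adaptor Shc1 (0.48 and 0.25). Both had an adjusted p of at most 0.0058 from limma. Another regulatory subunit, Pik3r1, was lower at both times (-0.36, adjusted p = 0.05, and -0.33, adjusted p = 0.02, limma). So was the catalytic subunit Pik3ca (-0.21, adjusted p = 0.096, and -0.19, adjusted p = 0.097, limma). The median of the list was 0.08 at 72 hours and 0.05 at 96 hours, near that of all genes. Of 21 genes of receptor restraint and turnover, 2 were higher and 6 lower at 72 hours, against 26.5% of all genes called, with a median of -0.13 (0.04 over all genes). At 96 hours 3 were higher and 4 lower, against 31.4% of all genes, with a median of -0.06 (0.02 over all genes). After centring 8 were higher and 2 lower, where 9120 of all 19938 genes were higher and 1579 lower. Socs4, which restrains Egfr (-0.61 and -0.48), and the receptor phosphatase Ptprk (-0.40 and -0.44) were lower at both times. Hgs, which sorts ubiquitinated receptors to lysosomes (0.34 and 0.32), was higher at both. The phosphatase Ptpn12 was lower at 72 hours (-0.38, limma adjusted p = 0.018) and not called at 96 hours (-0.14, limma adjusted p = 0.14). Cbl, the ubiquitin ligase of Egfr, had log2 ratios of -0.18 at 72 hours (limma adjusted p = 0.11) and -0.26 at 96 hours (limma adjusted p = 0.02).

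Of 29 measured genes of 30 listed as induced by growth factors, 3 were higher and 2 lower at 72 hours in the invading fraction, where 13.0% of all genes were higher and 13.5% lower. At 96 hours 13 were higher and 2 lower, where 16.7% of all genes were higher and 14.7% lower. Centring raised this to 20 higher and 2 lower, where 9120 of all 19938 genes were higher and 1579 lower. For 72 hours centring gave 5 higher and 2 lower (5030 and 1865 over all genes). Quantile normalization applied again gave 6 higher and 2 lower at 72 hours (5043 and 2328 over all genes). Dusp4, a phosphatase of ERK, had log2 ratios of 0.81 at 72 hours (SE 0.2, limma adjusted p = 0.019) and 1.04 at 96 hours (SE 0.11, limma adjusted p = 8.9e-05). The transcription factor Etv4 was higher at both times (0.66 and 0.85). The AP-1 subunit Fosl1 had 0.44 at 72 hours (limma adjusted p = 0.32) and was called higher at 96 hours (1.09, limma adjusted p = 0.0016). Plaur, the urokinase receptor, had 0.42 at 72 hours (limma adjusted p = 0.16) and was called higher at 96 hours (0.92, limma adjusted p = 0.0013). The feedback inhibitors Spry1 (-0.71 and -0.74) and Spry2 (-0.60 and -0.65) were the 2 lower genes at both times. Of the early response genes, Ier3 was higher at both times (0.61, limma adjusted p = 0.0063, and 0.72, limma adjusted p = 0.00023). The AP-1 subunit Jun (0.32, limma adjusted p = 0.024) and the transcription factors Egr2 (0.58, limma adjusted p = 0.072) and Egr3 (0.27, limma adjusted p = 0.047) were higher at 96 hours and not called at 72 hours. Fos (-0.04 and 0.03), Egr1 (-0.08 and -0.10), Fosb (0.31 and 0.23), Junb (0.24 and 0.08), Ier2 (-0.03 and -0.07) and Myc (-0.25 and -0.03) were not called at either time. The median of the list was 0.16 at 72 hours and 0.23 at 96 hours, against 0.04 and 0.02 over all genes. The test of the difference between the times called 0 of the 29, and 0 genes of the other lists. At an unadjusted p under 0.05 from limma it passed 0 of the 29 and between 1 and 5 genes of each other list. Of all 35556 probe sets, 3062 passed. In the non-invading fraction 2 of the 29 were higher and 6 lower at 96 than at 72 hours, where 15.4% of all genes were higher and 12.2% lower. In the invading fraction 1 was higher and 1 lower, where 18.2% of all genes were higher and 16.7% lower.

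**Figure D4:**
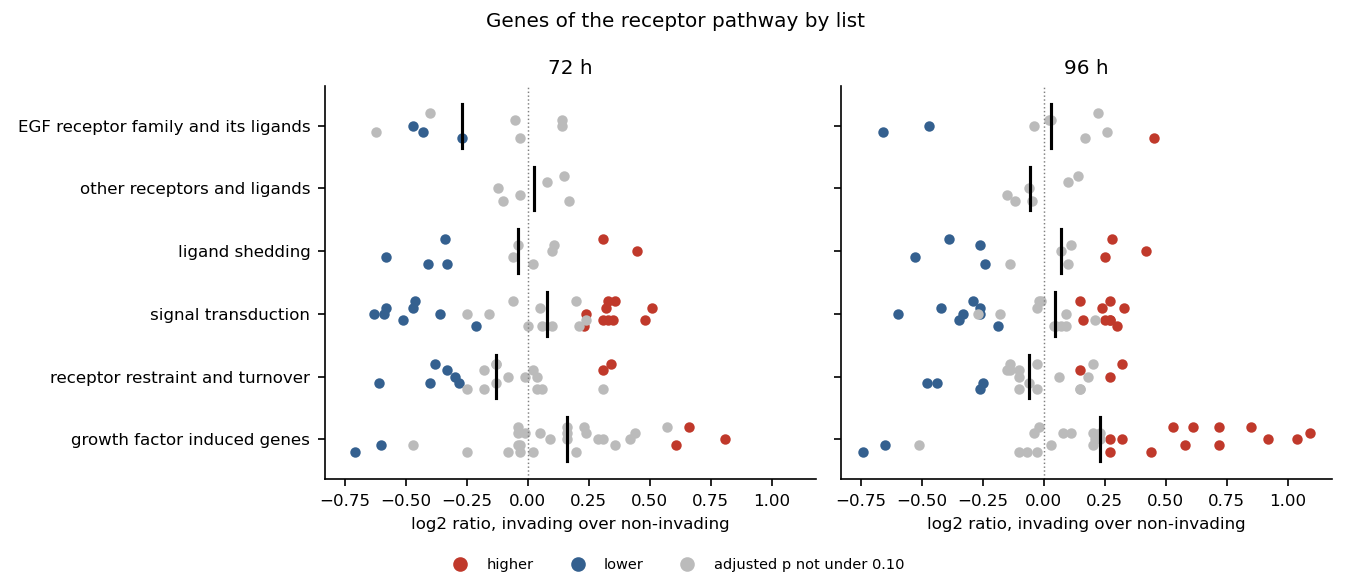
Invading over non-invading log2 ratio (horizontal axis) of every measured gene of the family and of the 5 pathway lists (vertical axis) at 72 hours (left) and 96 hours (right); red and blue points were called higher and lower, grey points were not, and black bars are list medians. The list of growth factor induced genes has 13 higher and 2 lower genes at 96 hours, against 3 and 2 at 72 hours.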

How the data were processed

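Signals of 18 arrays were used as deposited by the authors, as log2 signals. They had been corrected for background, normalized by sketch quantiles and summarized for each probe set by RMA (Affymetrix Expression Console 1.2 in the submitters' processing notes). Such normalization gives every array about the same distribution, so a change shared by most genes would not show. Sample medians still lay lower in the invading than in the non-invading fraction at each time. Values were not transformed further. Of 35556 probe sets, 21789 carry exactly 1 symbol of the array annotation, 1621 several and 12146 none, and 6617 of those without a symbol have low numbers. The probe set with the highest mean stands for a gene. Replicates are biological replicates by their titles.

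The fractions were compared per time with limma 3.58.1 in R 4.3.3, without covariates, and the times and their difference in 1 fit over all 18 samples. P-values were adjusted by Benjamini and Hochberg over all probe sets. Intervals are at 95% and not adjusted. The fits were tested on simulated data. Windows and figures were made with Python 3.11.15, pandas 2.3.3 and matplotlib 3.10.9.

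Named genes are the 10 listed members, up to 4 genes per pathway list with the largest log2 ratios called at either time, and the 3 genes nearest in pattern to each member called at both times. Adam10, Adam17, Rhbdf1, Rhbdf2, Pik3r2, Pik3r1, Pik3ca, Shc1, Cbl, Spry1, Spry2, Nrg4 and the early response genes were named outside this rule, after their values were seen. The members and lists were chosen with earlier results of these data known. Alternatives were other scalings, filters, variance models, samples and thresholds, a replicate block, a t-test paired by replicate number and leaving out each sample.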

Additional observations from a re-analysis of the deposited data

Results flagged for a closer look

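In 1 of 36 groups of 4 or 5 samples (9 genes in 4 groups) a sample stood apart from the others by a gap that is large for the range of its group. It was Egfr in the invading fraction at 96 hours: replicate 1 had a log2 signal of 11.02 and the other 4 lay from 10.81 to 10.87, a gap of 0.735 of the whole range. Chance flags about 1 in 20 such groups. Replicate 1 still lay below the lowest non-invading sample of 96 hours, at 11.40, and Egfr was called lower at that time with and without it.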

How the results depend on the processing

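Egfr at 96 hours, Nrg1 at both times and Erbb2 over time in the invading fraction kept their calls in every alternative run, and Egfr at 72 hours in all but a t-test paired by replicate number (adjusted p = 0.13), the kind of test a legend of the study names for receptor levels. Of the 9 genes, 3 were called at 96 hours, but 6 (4 higher and 2 lower) after quantile normalization applied again and 7 (5 higher and 2 lower) after each array was centred on its median, which moved the median log2 ratio of all genes by 0.119. At 72 hours the paired t-test called 1 in place of 3 (4 at an unadjusted p under 0.05), with Egfr and Btc lost (adjusted p = 0.13 and 0.17), and at 96 hours 4, with Hbegf added (adjusted p = 0.095). Over all 35556 probe sets the paired t-test called 2594 at 72 hours and 10721 at 96 hours. The main fits called 9888 and 12352. At an unadjusted p under 0.05 the paired t-test passed 9105 probe sets at 72 hours. Egfr, the 1 gene called over time in the non-invading fraction, was lost after quantile normalization applied again and at an adjusted p under 0.05 (0 called in both). Leaving out 1 sample at a time gave 2 to 5 called at 72 hours (5 without non-invading replicate 4), 2 to 4 at 96 hours, 0 to 0 for the difference between times, 1 to 4 over time in the invading fraction (4 without replicate 1 of 72 hours, 1 without replicates 2 or 4 of 72 hours or 3 of 96 hours) and 0 to 4 in the non-invading fraction (4 without replicate 4 of 72 hours, 2 without replicate 1 or 4 of 96 hours, 0 without replicate 1 or 2 of 72 hours or 2, 3 or 5 of 96 hours). After group means were removed, samples of the same number correlated at -0.07 to 0.09 (72 hours) and 0.05 to 0.17 (96 hours). The non-invading sample that correlated best with an invading one had the same number for 1 of 4 at 72 hours. At 96 hours this held for 4 of 5. The labels state no pairing, so the main fits were unpaired, and whether the numbers pair samples is not settled. With the replicate number as a block, 4 genes were called at 72 hours, 4 at 96 hours and 0 for the difference, the added gene being Hbegf at both times (-0.62, adjusted p = 0.025, and 0.26, adjusted p = 0.038, limma). Hbegf at 72 hours was also called with the features limited to those above a linear signal of 100, to 1 symbol or to probe sets outside the unnamed low-numbered ones, and in the fit over all samples (adjusted p = 0.051 to 0.098). At 72 hours centring added calls of Erbb2 and Erbb3, and quantile normalization applied again added Erbb2. At 96 hours centring added calls of Erbb3, Hbegf, Ereg and Btc (log2 ratios 0.14 to 0.38). The block could not be fitted for changes with time, and averaging probe sets was not run since each gene has 1. Erbb3 was removed by the limit of 100. No direction of a called value reversed. The pathway lists were run through the same alternatives after the data were seen. None of the 6 other receptors and ligands was called in the deposited values, but 1 was at 72 hours and 2 at 96 hours after either rescaling, and 1 at 72 hours in the fit over all samples and in the paired t-test. Leaving out 1 sample at a time gave 0 to 1 of them at 72 hours (1 without non-invading replicate 1) and 0 to 2 at 96 hours (2 without non-invading replicate 4). At 72 hours quantile normalization applied again called 8 and the replicate block 9 growth factor induced genes in place of 5. The paired t-test of 72 hours called 1 gene of ligand shedding in place of 6, 8 of signal transduction in place of 18, 2 of receptor restraint in place of 8 and 3 of the growth factor induced genes in place of 5. Over all probe sets it called 2594 in place of 9888, so fewer calls were not particular to these lists.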

Other observations

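The genes nearest in pattern to Errfi1 and Hbegf were looked at after the values were seen. Over the 18 samples, Ier5, Hbegf and Lif lay nearest to Errfi1, each at a root mean square difference of 0.27, where Errfi1 itself had an SD of 0.46 around its mean. Serpinb9b, Map2k6 and Ereg lay nearest to Hbegf, each at 0.22, where Hbegf itself had an SD of 0.38. Ier5, an early response gene, had ratios of 1.17 at 72 hours (limma adjusted p = 0.48) and 1.24 at 96 hours (limma adjusted p = 0.023), and Lif, a cytokine of the interleukin 6 family, of 1.05 (adjusted p = 0.85) and 1.31 (adjusted p = 0.017).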
